A study of Mus musculus with 12 samples.

Results

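The transcripts described here are ligands, an activator and receptors of the HGF and EGF signals that drive liver regeneration. Fgfr4, an FGF receptor, was listed with them. The 10 genes were Hgf, Hgfac, Met, Egfr, Areg, Hbegf, Tgfa, Btc, Erbb3 and Fgfr4. They were chosen by name, with earlier results of these data known, and matched by symbol to the Ensembl identifiers of the count table. The table lists 24187 genes, of which 22581 passed the low-count filter, and all 10 members were listed and passed it. Bulk RNA sequencing was performed on liver from 12 mice, of a strain that the methods call C57BL/6 J in one place and C57BL6/JOlaHsd in another, to ask how human alternatively activated macrophages (hAAMs), a cell therapy, alter the injured liver. The control group was 3 mice labelled as controls, without injury. The methods describe fasting before the injection of APAP or saline. They do not say whether the sequenced control mice were fasted or given saline. In the other groups, injury was induced with acetaminophen (paracetamol, APAP) at 350 mg/kg, and mice then received PBS vehicle (n = 5) or hAAMs (n = 4). Mice were 10 to 12 weeks old and of either sex by the methods, which do not give the sex of each liver, and PBS or cells were injected 16 h after APAP. Culling is placed at 32 h and, elsewhere in the text, at 36 h after APAP, and neither time is tied to these libraries. The labels name 1 APAP dose, while the text sets these data beside a severe model with a higher one, and the number of cells given to these mice is not stated. RNA was fragmented for a time that depended on the quality of each sample. The hAAMs came from human blood monocytes and reads were aligned to the mouse genome, and whether reads from human cells entered the mouse counts was not tested.

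HGF is a growth factor made mainly by non-parenchymal cells of the liver, secreted as an inactive chain, cleaved by proteases such as the HGF activator encoded by Hgfac, and bound on hepatocytes by the receptor tyrosine kinase MET. The ligands TGFA, HB-EGF, amphiregulin and betacellulin are made as membrane proteins, released by ADAM proteases and bound by EGFR. EGFR can pair with ERBB3, a receptor with little kinase activity of its own whose ligands are some of the neuregulins. FGFR4 is the hepatocyte receptor for the gut hormone FGF15 and restrains bile acid synthesis. HGF and the EGF family are known to drive hepatocytes into division after loss of tissue.

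Libraries held 47391650 to 74056505 gene counts. Scaling factors by the trimmed mean of M-values (TMM) were 0.832 to 0.859 in control livers and 0.933 to 1.14 in livers given APAP, so each fold change is relative to the bulk of genes. With library size alone the median gene stood 0.36 higher on the log2 scale in vehicle livers and 0.32 higher in hAAM livers than in controls. Hepatocyte markers identified the tissue: all 9 listed of 10 were detected in every liver, and their summed level ranged from 77152 to 109281 counts-per-million (CPM) in control livers, from 79804 to 112313 in vehicle livers and from 82527 to 118665 in hAAM livers. Most of this sum was Alb (albumin), with a mean of 52022 CPM in control and 57529 CPM in vehicle livers. Of the 9 markers, 2 fell in vehicle livers by edgeR, Hnf4a (log2 difference -0.38, FDR = 0.028) and Asgr1 (-0.44, FDR = 0.038), and none passed in hAAM livers, where 14.8% and 9.96% of all genes were called lower. Of 10 markers of monocytes and recruited macrophages, 7 rose in each APAP group, where 15% of all genes were called higher in vehicle and 10.7% in hAAM livers. Their sum was 104 to 117 CPM in control livers, 211 to 591 CPM in vehicle livers and 209 to 596 CPM in hAAM livers. In bulk liver, fewer cells of a type and less RNA per cell cannot be told apart. The libraries vehicle 3 and hAAM 4 carried different group labels but were almost the same: over 13654 genes their spread was 1.20 times the counting noise, against 2.53 to 5.55 for the other 35 pairs of APAP libraries. The numbers of genes and members called and the tests of the members were therefore computed with both libraries and without both. So were the tests of the named pathway genes against control. Marker and pathway counts and the make-up of the receptor and ligand transcripts were computed with both only.

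Promoter sequence is shown for 4 members: Egfr, the receptor that changed most, Hgfac, and the neighbouring ligand genes Areg and Btc. RefSeq promoters on GRCm38.p6 matched 8 of the 10 members, and Hbegf and Erbb3 had no entry. Each run is the 250 bases before the RefSeq start, 5′ to 3′ on the strand of the gene. Capitals mark matches, on either strand, to 4 motifs chosen after the sequences were seen. The AP-1 motif was spelled TGANTCA and the cyclic AMP response element (CRE) was spelled TGACGTCA. The promoter box for TBP was spelled TATAAA and the box for SP1 was spelled GGGCGG.
Egfr, chr11:16751953-16752202, plus strand: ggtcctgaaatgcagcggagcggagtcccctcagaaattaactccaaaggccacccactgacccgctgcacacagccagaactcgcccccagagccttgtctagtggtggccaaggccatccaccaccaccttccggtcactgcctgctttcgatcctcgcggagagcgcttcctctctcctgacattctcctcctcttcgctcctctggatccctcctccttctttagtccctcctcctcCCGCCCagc
Hgfac, chr5:35041259-35041508, plus strand: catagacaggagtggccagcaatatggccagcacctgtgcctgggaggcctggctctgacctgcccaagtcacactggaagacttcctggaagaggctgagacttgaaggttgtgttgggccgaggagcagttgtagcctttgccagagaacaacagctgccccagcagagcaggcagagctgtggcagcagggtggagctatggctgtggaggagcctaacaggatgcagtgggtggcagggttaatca
Areg, chr5:91139349-91139598, plus strand: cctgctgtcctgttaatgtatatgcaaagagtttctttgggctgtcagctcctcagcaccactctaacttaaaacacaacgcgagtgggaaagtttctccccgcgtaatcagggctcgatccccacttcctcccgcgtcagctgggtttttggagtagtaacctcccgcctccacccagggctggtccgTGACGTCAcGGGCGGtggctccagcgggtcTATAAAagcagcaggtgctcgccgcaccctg
Btc, chr5:91402995-91403244, minus strand: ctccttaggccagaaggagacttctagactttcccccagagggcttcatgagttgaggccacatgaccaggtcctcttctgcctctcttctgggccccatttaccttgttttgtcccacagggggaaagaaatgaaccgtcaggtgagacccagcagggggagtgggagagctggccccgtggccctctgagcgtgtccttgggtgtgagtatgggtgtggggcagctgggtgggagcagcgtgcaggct

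Among the members with a promoter entry, the CRE letters and the TBP box were found in Areg alone, 61 to 54 and 31 to 26 bases before its start. CRE letters occurred in 1.55% and the TBP box in 12.4% of 32817 promoters of the same length. Met alone held AP-1 letters, which 6.75% of promoters held. The SP1 box was found in Egfr, Areg, Met, Tgfa and Fgfr4, and in 32.7% of all promoters. None of the 4 sets of letters was found in the windows of Hgf, Hgfac or Btc. The motifs do not overlap one another in Areg, and a match describes letters, not binding.

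Levels of the members in control liver were compared per kilobase of merged exon. The control means were 179 CPM per kb for Egfr, 58.5 for Hgfac, 39.2 for Erbb3, 19.6 for Met and 14.8 for Fgfr4. The growth factor transcripts were lower, with 5.89 CPM per kb for Tgfa, 3.57 for Hgf, 0.303 for Btc, 0.200 for Hbegf and 0.0200 for Areg. No neighbours in this order overlapped among the control livers. With the longest transcript in place of merged exons, Tgfa overlapped Hgf and Btc overlapped Hbegf. In vehicle livers Egfr, at 51.4 CPM per kb, overlapped Hgfac at 38.2, and Erbb3 at 17.7 overlapped Met at 15.2, which in turn overlapped Fgfr4 at 15.0. In hAAM livers Egfr stood at 74.9 CPM per kb with no overlap with Hgfac at 45.2, and Erbb3, Met and Fgfr4 overlapped in turn. With the longest transcript, Egfr and Hgfac overlapped in hAAM livers too. Each receptor mean lay above each ligand mean in all 3 groups.

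**Figure D1:**
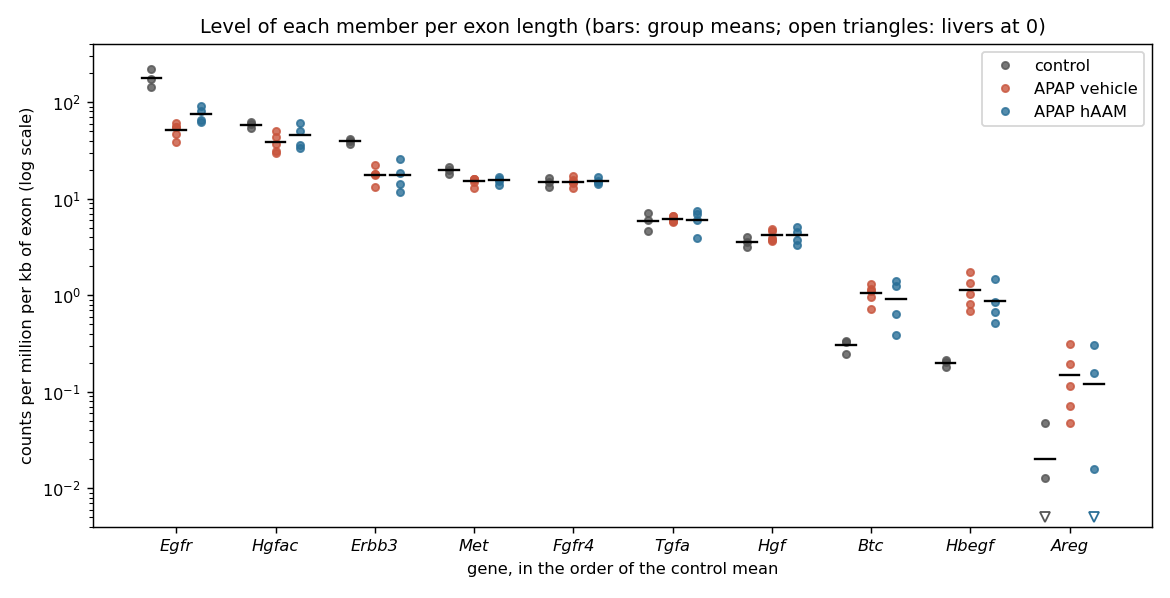
Transcript level per kilobase of merged exon (CPM per kb, log axis) of each member in each liver, with bars at the group means and open triangles for livers with no Areg count. Egfr falls from a control mean of 179 to 51.4 in vehicle and 74.9 in hAAM livers, while Btc and Hbegf rise from below 0.4 to near 1.

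Between vehicle and control livers, 6 of the 10 members passed a false discovery rate (FDR) of 0.05 in edgeR's quasi-likelihood test, where 29.8% of all tested genes were called. Of these, 2 were higher and 4 lower, against 15% and 14.8% of all genes. DESeq2 called 6 members and 34% of genes, and 7 members had an unadjusted p under 0.05, against 41.8%. Groups did not overlap for 7 members, against 34.8% of all genes, with 3 above (17.5%) and 4 below (17.3%). Under scaling by library size alone, 4 of 6 called members were higher, as were 8637 of 9747 called genes against 3380 of 6719 with TMM. The median size of the change was 0.88 on the log2 scale over the members and 0.32 over all genes. The members and the gene lists used below were chosen with earlier results of these data known. Their shares against all genes therefore describe them and are no test.

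Between hAAM and control livers, 5 members passed by edgeR, where 20.7% of all genes were called, 2 of them higher (10.7%) and 3 lower (9.96%). Scaled by library size alone, 3 of 5 called members were higher against control, as were 6559 of 7340 called genes against 2418 of 4666 with TMM. Groups did not overlap for 5 members, against 28.5% of genes. Both comparisons use the same control livers. Between hAAM and vehicle livers no member passed, and 0% of all genes were called by edgeR. Of all genes, 1133 (5.02%) had an unadjusted p under 0.05 in that comparison, and DESeq2 called 1 gene. Among the members, Egfr alone had an unadjusted p under 0.05 between the treatments and alone showed no overlap, which 1.4% of genes did, 0.709% with hAAM livers above.

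**Figure D2:**
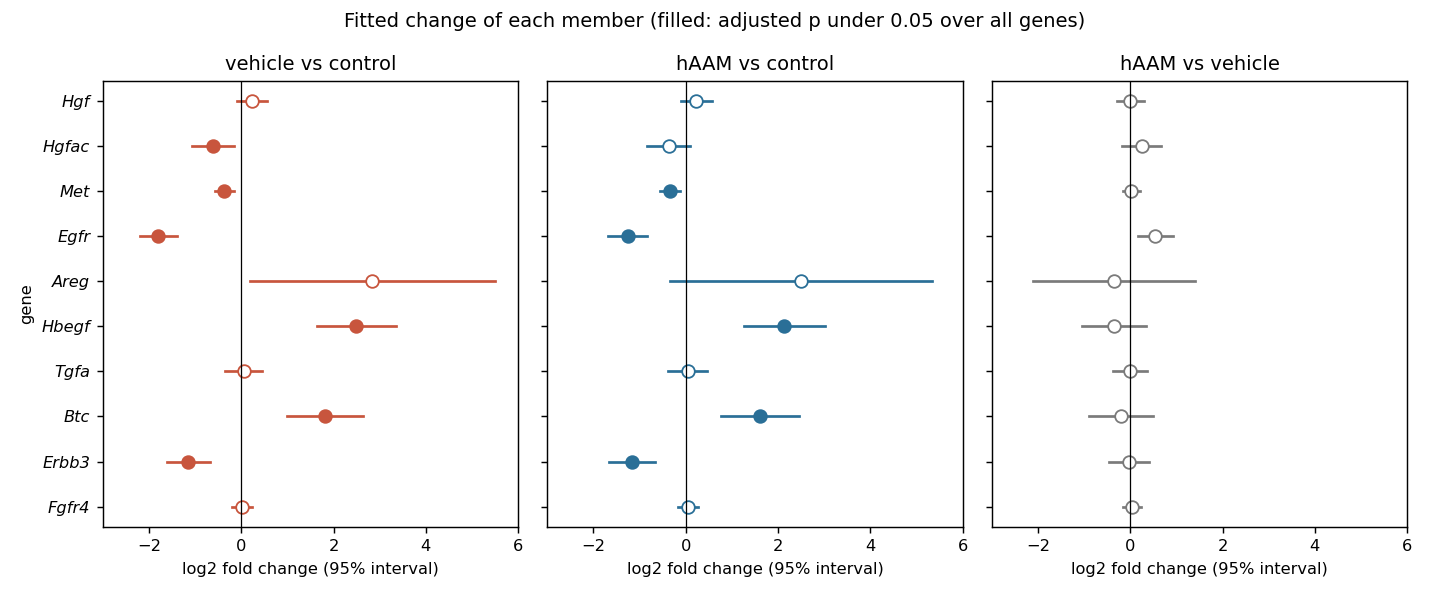
Log2 fold change of each member with its 95% interval for vehicle against control, hAAM against control and hAAM against vehicle livers, with filled points for members that passed an FDR of 0.05 over all genes. Egfr, Erbb3 and Met lie below 0 and Hbegf and Btc above 0 against control in both APAP groups, and no point is filled between the treatments.

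Egfr (ENSMUSG00000020122, chr11:16752203-16918158 on GRCm38, plus strand), the receptor for the EGF family, fell most of all members on the log2 scale. Its level was 1624, 1989 and 2468 CPM in the control livers. In vehicle livers it was 623, 441, 692, 630 and 525 CPM, and in hAAM livers 927, 745, 1024 and 697 CPM. All 9 APAP livers lay below the lowest control liver, and all 4 hAAM livers lay above the highest vehicle liver. Against control, Egfr fell by 1.80 (SE 0.183, FDR = 9.6e-05) on the log2 scale in vehicle livers, 3.48-fold, and 4.33% of all genes changed by more. In hAAM livers it fell by 1.26 (SE 0.195, FDR = 0.0019), 2.39-fold. The direct difference between the treatments was 0.54 (SE 0.171), or 1.46-fold higher with hAAMs, with a 95% interval from 0.17 to 0.92, an unadjusted p of 0.0079 in edgeR's test and an FDR of 0.97, so it did not hold over all genes.

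The gap between the treatments for Egfr rested at its edge on the nearly identical libraries, vehicle 3 at 692 CPM and hAAM 4 at 697 CPM. Without both, the difference was 0.69 (SE 0.187) with an unadjusted p of 0.0040 and an FDR of 0.56 in edgeR's test. Vehicle 3 was the highest vehicle liver and hAAM 4 the lowest hAAM liver. Leaving out both therefore had to widen the gap and is no check of it. The remaining vehicle livers stood at 630 CPM at most and the remaining hAAM livers at 745 CPM at least. Over the fits that each left out 1 library, the difference ranged from 0.44 to 0.63 and its direction never changed, while the lowest FDR over every setting tried was 0.43.

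Within the Egfr locus lies Egfros, an antisense gene on the opposite strand that shares no exon bases with Egfr. Egfros stood at 209, 123 and 109 CPM in control livers. It was 17.9, 14.7, 66.9, 30.8 and 38.2 CPM in vehicle livers and 97.1, 102, 169 and 67.6 CPM in hAAM livers. As for Egfr, every hAAM liver lay above every vehicle liver and the edge of the gap was formed by vehicle 3 and hAAM 4. In edgeR's test Egfros fell by 2.12 in vehicle livers against control (SE 0.438, FDR = 0.0044), while the fitted difference in hAAM livers was -0.43 (SE 0.463, FDR = 0.54). Between the treatments it was 1.69 higher with hAAMs (SE 0.413), 3.23-fold, with an unadjusted p of 0.0014 and an FDR of 0.97, and 0.19% of genes differed by more. Without the similar pair of libraries this difference was 2.27 (SE 0.362, unadjusted p = 8.3e-05, FDR = 0.20 in edgeR's test). Here too, leaving out the pair removed the edge of the gap, had to widen it and is no check of it. Egfros equalled 4.40% to 12.9% of the Egfr CPM in control, 2.87% to 9.66% in vehicle and 9.70% to 16.5% in hAAM livers. Across the 9 APAP livers the log2 levels of the pair correlated with r = 0.88, as a description of livers that share their groups. The library kit keeps strand but strand use in counting is not stated, so reads from unspliced Egfr RNA and from Egfros cannot be told apart here. Egfros was singled out after its values were seen.

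Erbb3 (ENSMUSG00000018166, chr10:128567523-128589652, minus strand), which lends EGFR and ERBB2 its docking sites for PI3K, was measured at 248, 222 and 237 CPM in control livers. It stood at 79.3, 105, 109, 107 and 133 CPM in vehicle livers and at 85.3, 71.1, 154 and 110 CPM in hAAM livers. No APAP liver reached the controls, and the APAP groups overlapped throughout. Erbb3 fell by 1.14 in vehicle livers (SE 0.213, FDR = 0.0026 by edgeR), 2.21-fold, and by 1.17 in hAAM livers (SE 0.226, FDR = 0.0055), 2.25-fold. The difference between treatments was -0.02 with a 95% interval from -0.46 to 0.41. The call against control held under each setting tried in both APAP groups.

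The ErbB receptor transcripts were pooled per kb to describe their make-up. Egfr and Erbb3 made up nearly all of the pool, which was 219 CPM per kb in control, 70.3 in vehicle and 93.5 in hAAM livers. Egfr held 81.4% ± 3.66 (SD, n = 3) of the pool in control livers, 72.8% ± 5.47 (n = 5) in vehicle livers and 80.2% ± 4.27 (n = 4) in hAAM livers. Erbb3 held 18.3% ± 3.58, 25.5% ± 5.42 and 18.5% ± 4.27 in the same order. The ranges of these shares overlapped between the groups. Erbb2, the receptor without a ligand of its own, held 0.209% of the control pool and 0.947% of the vehicle pool. It was 1.44-fold higher in vehicle than control livers (FDR = 0.042 by edgeR), a call that was lost when any 1 of 8 libraries was left out. In hAAM livers Erbb2 did not pass (FDR = 0.36). Erbb4, the second neuregulin receptor, was 2.22-fold higher in hAAM livers (FDR = 0.043) and did not pass in vehicle livers (FDR = 0.069). Its call was lost when any 1 of 7 libraries was left out, without the similar pair of libraries (FDR = 0.072) and when the vehicle livers were left out of the fit, and the treatments were not called different for either gene.

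**Figure D3:**
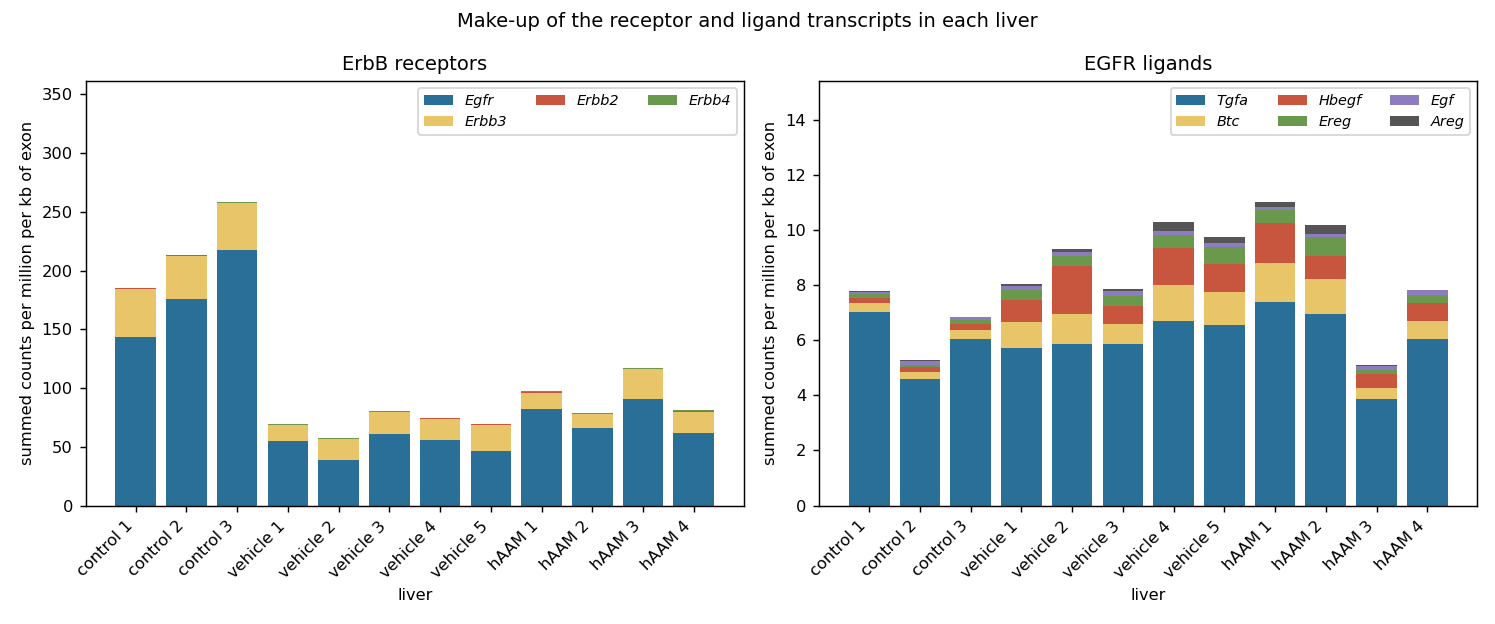
Summed CPM per kb of exon of the 4 ErbB receptors (left) and 6 EGFR ligands (right) in each liver, with each gene's part in colour. The receptor pool shrinks from 185 CPM per kb or more in control livers to 117 or less in APAP livers, and the ligand pool gains Btc, Hbegf and Ereg.

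Hbegf (ENSMUSG00000024486, chr18:36504927-36515805, minus strand), the heparin-binding EGF-like ligand, rose most among the called members. Control livers held 0.877, 0.991 and 1.03 CPM from 46 to 63 counts each. Vehicle livers held 3.89, 8.44, 3.31, 6.50 and 5.01 CPM and hAAM livers 7.15, 4.13, 2.50 and 3.21 CPM. Every APAP liver stood above every control liver, and the APAP groups overlapped. The rise was 2.49 on the log2 scale in vehicle livers (SE 0.395, FDR = 0.0012 by edgeR), 5.62-fold, and 2.14 in hAAM livers (SE 0.401, FDR = 0.0047), 4.39-fold. The difference between treatments was -0.36 with a 95% interval from -1.04 to 0.33.

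Btc (ENSMUSG00000082361, chr5:91357261-91402994, minus strand), which encodes betacellulin, a ligand of EGFR and ERBB4, was 1.49, 1.10 and 1.52 CPM in control livers. It was 4.35, 5.03, 3.29, 5.96 and 5.30 CPM in vehicle livers and 6.28, 5.69, 1.74 and 2.88 CPM in hAAM livers. All APAP livers exceeded the controls, hAAM 3 by the least. The rise was 1.81 in vehicle livers (SE 0.380, FDR = 0.0048 by edgeR), 3.50-fold, and 1.60 in hAAM livers (SE 0.389, FDR = 0.015), 3.03-fold. Leaving out control 2 ended the hAAM call (FDR = 0.053). The difference between treatments was -0.21 with a 95% interval from -0.90 to 0.48.

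Areg (ENSMUSG00000029378, chr5:91139599-91148432, plus strand), which encodes amphiregulin, was at the edge of detection. It gave 3, 1 and 0 counts in control livers, 5, 8, 3, 26 and 16 counts in vehicle livers and 10, 20, 1 and 0 counts in hAAM livers. In CPM, each vehicle liver stood above each control liver, with the lowest vehicle liver at 0.0581 CPM and the highest control liver at 0.0572 CPM, whereas hAAM livers spanned the control range. Summed over libraries, Areg was 7.99 times the control level in vehicle livers and 6.09 times in hAAM livers, with 95% intervals from 2.96 to 30.3 and from 2.15 to 23.7 that cover counting error only. The fitted log2 difference was 2.84 in vehicle livers (SE 1.22, FDR = 0.098 by edgeR) and 2.49 in hAAM livers (SE 1.31, FDR = 0.19), and neither passed. Without the similar pair of libraries, Areg passed in vehicle livers (FDR = 0.047).

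Areg, Btc and epiregulin (Ereg) are neighbours in a cluster of EGF family genes that spans 375.5 kb of chromosome 5. Ereg ends 46.0 kb before Areg, and Areg ends 208.8 kb before the annotated lower end of Btc. Epgn, the first gene of the cluster, is not analysed here. Ereg, a ligand of EGFR and ERBB4, rose 3.93-fold in vehicle livers (FDR = 0.011 by edgeR) and 3.75-fold in hAAM livers (FDR = 0.022). Its hAAM livers, at 0.523 to 2.87 CPM, overlapped the control range of 0.236 to 0.572 CPM, and the hAAM call was lost without control 2, control 3, hAAM 1 or hAAM 2. A non-coding gene between Areg and Btc, Gm19619, did not pass against control in vehicle (FDR = 0.13) or hAAM livers (FDR = 0.80).

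Tgfa (ENSMUSG00000029999, chr6:86195223-86275719, plus strand), the most abundant EGFR ligand transcript, did not pass in any comparison. Levels were 45.7, 29.8 and 39.3 CPM in control, 37.0, 38.0, 38.0, 43.4 and 42.6 CPM in vehicle and 48.1, 45.1, 25.2 and 39.2 CPM in hAAM livers. The groups overlapped throughout. The fitted difference from control was 0.06 in vehicle livers with a 95% interval from -0.34 to 0.46, and 0.04 in hAAM livers with an interval from -0.38 to 0.46. An annotated transcript on the opposite strand, Gm43917, shares 118 exon bases with Tgfa and held 643 counts in all against 26771 for Tgfa.

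Of the pool of 6 EGFR ligand transcripts per kb, Tgfa made up 88.6% ± 1.55 (SD, n = 3) in control livers, 68.2% ± 4.66 (n = 5) in vehicle livers and 72.2% ± 5.15 (n = 4) in hAAM livers. The lowest control liver, at 87.2%, stood above the highest APAP liver, at 77.2%. The share of Hbegf was 3.11% in control, 12.2% in vehicle and 10.1% in hAAM livers. That of Btc was 4.59%, 11.6% and 10.2%. The pool itself was 6.64 CPM per kb ± 1.27 in control, 9.04 ± 1.06 in vehicle and 8.53 ± 2.65 in hAAM livers. Egf, the founding member of the family, did not pass in either APAP group (FDR = 0.15 and 0.37 by edgeR).

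Hgf (ENSMUSG00000028864, chr5:16553495-16620152, plus strand), which encodes the ligand of MET, did not pass in any comparison. It was 28.8, 22.5 and 25.6 CPM in control, 28.4, 26.7, 26.4, 33.3 and 35.0 CPM in vehicle and 36.7, 32.8, 23.6 and 26.8 CPM in hAAM livers. All 3 groups overlapped. The fitted difference from control was 0.23 in both APAP groups, with 95% intervals from -0.10 to 0.55 in vehicle and from -0.11 to 0.56 in hAAM livers. With library size alone, the vehicle difference was 0.58 and passed (FDR = 0.028 by edgeR), beside the shift of 0.36 in the median gene. Hgf shares 484 exon bases with Gm43489 on its own strand, which held 247 counts in all against 19766 for Hgf. Among the marker lists, the summed stellate cell and fibroblast markers, from cells known to make HGF, ranged from 453 to 636 CPM in control, from 642 to 1043 CPM in vehicle and from 636 to 1227 CPM in hAAM livers. Of these 11 markers, 4 rose in vehicle and 3 in hAAM livers, and none fell by the test, where 15% and 10.7% of all genes were called higher. Those called in vehicle livers were Col1a1, Pdgfrb, Des and Hand2. The collagens held most of the higher sum, with Col1a1 at 35.1 CPM in control and 187 CPM in vehicle livers and Col3a1, which did not pass by edgeR (FDR = 0.068, against 0.020 by DESeq2), at 70.0 and 182 CPM. Among markers that did not pass, some lay close to or below control in vehicle livers, Lrat at 1.07, Dcn at 0.996, Reln at 0.811 and Colec11 at 0.676 times the control level. Their part in the Hgf level was not tested.

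Hgfac (ENSMUSG00000029102, chr5:35041509-35048461, plus strand), a serum protease precursor made by hepatocytes, was 214, 185 and 200 CPM in control livers. It was 126, 147, 170, 101 and 107 CPM in vehicle livers, all below the controls, and 123, 114, 209 and 170 CPM in hAAM livers, where hAAM 3 lay within the control range. Hgfac fell by 0.62 in vehicle livers (SE 0.206, FDR = 0.041 by edgeR), 1.53-fold, and the fitted difference in hAAM livers was -0.37 (SE 0.218, FDR = 0.25). The treatments differed by 0.24 with a 95% interval from -0.17 to 0.66. The vehicle call was lost in 8 of the 12 fits that left out 1 library: any of the 3 controls, vehicle 1, 2, 4 or 5, or hAAM 4. It was also lost with library size alone (FDR = 0.18). Across the 9 APAP livers Hgfac followed the summed hepatocyte markers with r = 0.94, and over all 12 livers with r = 0.60. With the endothelial and stellate marker sums it gave r = -0.85 and -0.73 across the APAP livers. Hgf gave r = -0.82 with the hepatocyte markers across the APAP livers and -0.52 over all 12, and with the stellate and fibroblast markers r = 0.77 and 0.80. With the endothelial markers Hgf gave 0.70 and 0.72, and with the monocyte and macrophage markers 0.69 and 0.70. These describe livers that share their groups.

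Met (ENSMUSG00000009376, chr6:17463800-17573980, plus strand), the HGF receptor, was 152, 138 and 162 CPM in control livers. It was 98.1, 115, 124, 123 and 122 CPM in vehicle and 116, 107, 127 and 123 CPM in hAAM livers, below each control liver. Met fell by 0.37 in vehicle livers (SE 0.0950, FDR = 0.013 by edgeR), 1.29-fold, and by 0.35 in hAAM livers (SE 0.0998, FDR = 0.030), 1.27-fold. With library size alone the differences were -0.02 (FDR = 0.85) and -0.05 (FDR = 0.72), so the fall of Met is a fall relative to the median gene. The vehicle call was lost without control 3 (FDR = 0.064). The hAAM call was lost without control 1, control 3, hAAM 1 or hAAM 2, and when the vehicle livers were left out of the fit.

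Fgfr4 (ENSMUSG00000005320, chr13:55152640-55168759, plus strand) did not pass in any comparison by TMM scaling. It was 47.1, 52.6 and 57.8 CPM in control, 45.9, 60.4, 53.0, 55.4 and 51.0 CPM in vehicle and 54.3, 50.8, 59.0 and 52.9 CPM in hAAM livers, which overlapped throughout. The fitted difference from control was 0.02 with a 95% interval from -0.19 to 0.23 in vehicle and 0.05 with an interval from -0.17 to 0.27 in hAAM livers. With library size alone it was 0.36 in vehicle livers (FDR = 0.0089 by edgeR) and 0.35 in hAAM livers (FDR = 0.019), the size of the shift in the median gene.

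**Figure D4:**
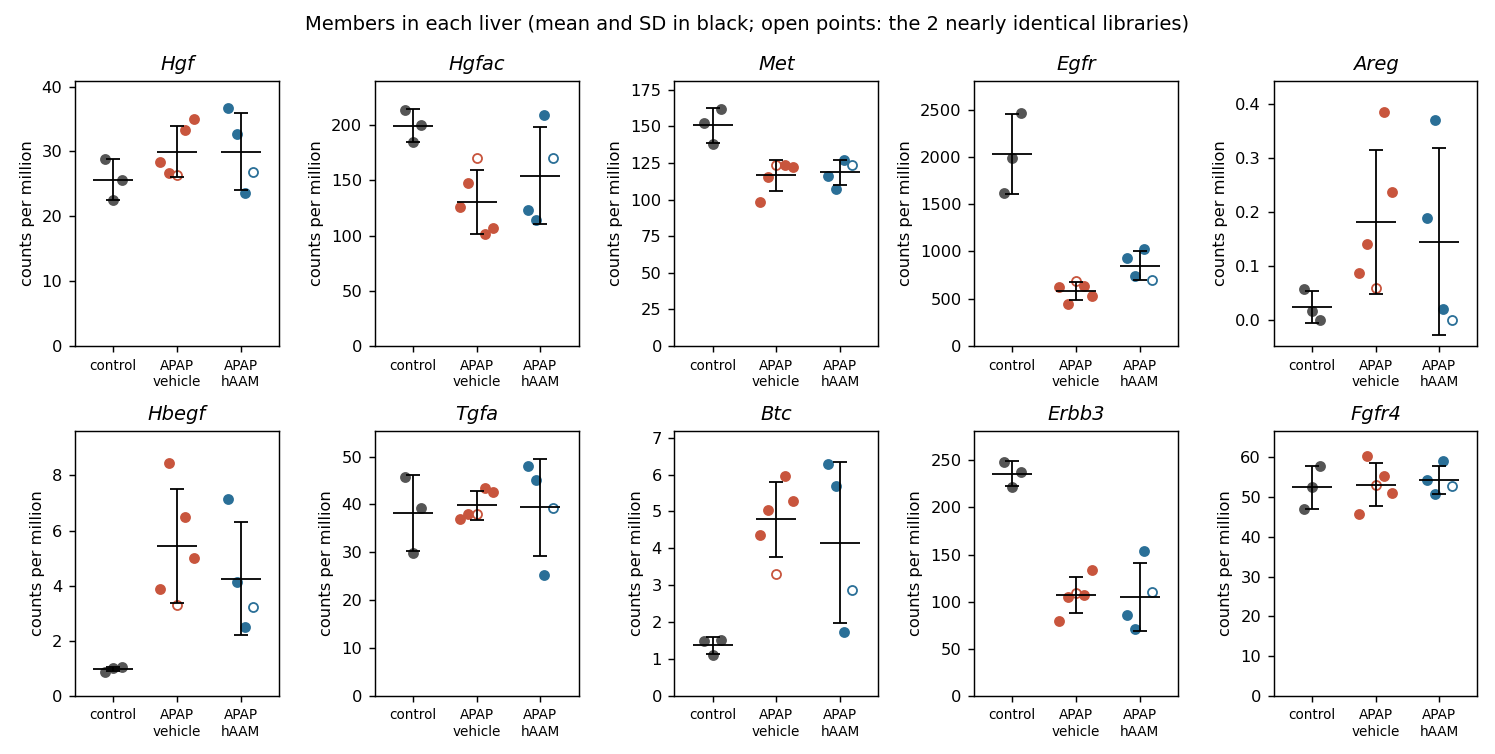
CPM of each member in each liver, with group mean and SD in black and open points for vehicle 3 and hAAM 4, the nearly identical libraries. Egfr in hAAM livers (697 to 1024 CPM) sits above vehicle livers (441 to 692 CPM), while the other members overlap between the treatments.

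The APAP livers did not differ evenly from control. The liver hAAM 3 was nearest to the control mean for each of the 6 members called in vehicle livers, and for 7 of all 10. Among the 9 APAP livers it had the highest Hgfac, Met, Egfr and Erbb3 and the lowest Hgf, Hbegf, Tgfa and Btc. Its distance from the control mean was -0.96 for Egfr, -0.61 for Erbb3, 0.07 for Hgfac and 0.35 for Btc in log2 CPM. In hAAM 1 the same distances were -1.11, -1.46, -0.69 and 2.18. Over 13653 genes, however, hAAM 3 was not the APAP liver nearest to control. Its spread from control 2 was 4.85 times the counting noise, against 4.27 for vehicle 3 and 4.24 for hAAM 4. It was the farthest of these from control 1 and control 3 as well. Its TMM factor, 0.933, was the lowest among APAP livers. Within the 9 APAP livers, Btc and Hgfac ran against each other (r = -0.91), and Btc ran with Tgfa (r = 0.90) and Hgf (r = 0.86), while Egfr and Btc gave r = -0.44. These correlations describe 9 livers of 2 groups and carry no test.

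**Figure D5:**
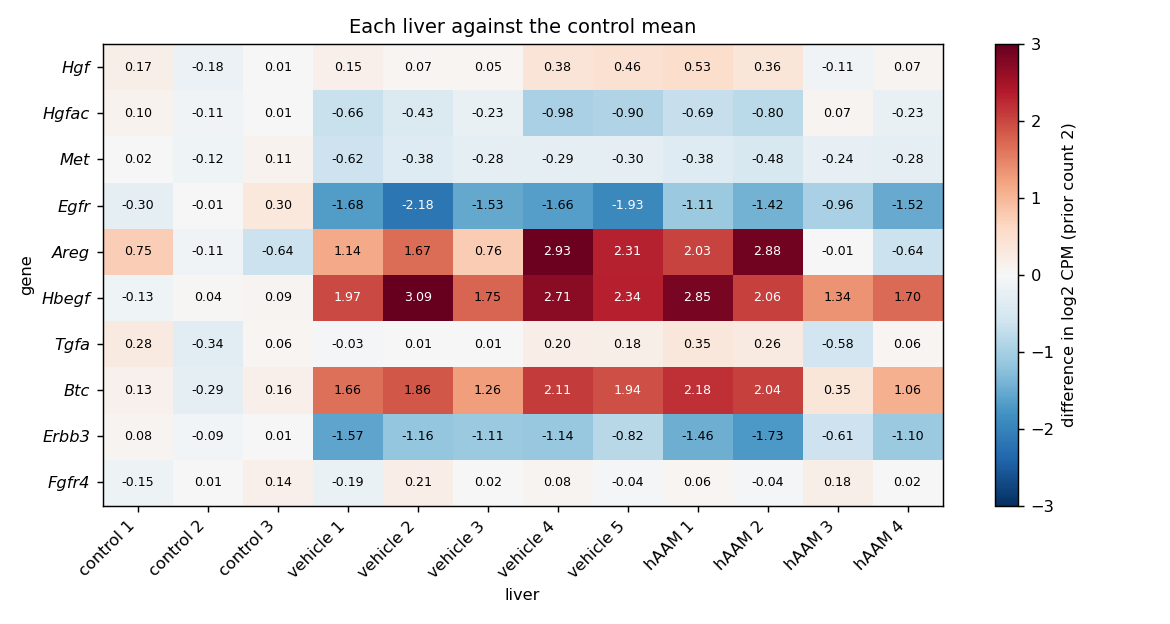
Difference in log2 CPM (prior count 2) of each member in each liver from the control mean, in colour and in figures. The column of hAAM 3 is the palest among APAP livers for the called members, with 0.35 for Btc against 1.06 to 2.18 in the other 8.

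The genes whose log2 CPM followed a member most closely over the 12 livers were listed among about 11166 genes with a mean log2 CPM above 2. For Hgfac they were Abcc6 (Pearson's r = 0.99), Masp2 and Gstz1, and for Btc they were Capn2 (r = 0.99), S100a11 and Nes. Egfr was followed by Zbtb20 (r = 0.97), Zfp706 and Cyp7b1, and Cyp2a12 ran most against it (r = -0.97). Hbegf was followed by Mast4 (r = 0.98), Erbb3 by Mon2 (r = 0.97) and Met by Suds3 (r = 0.97). Weaker likeness was found for Areg with Rap1b (r = 0.95), Hgf with Ywhae (r = 0.94), Tgfa with Psmc3 (r = 0.91) and Fgfr4 with 4933411K16Rik (r = 0.81). The choice depended on the measure: with Spearman's rho in place of Pearson's r, 3 of the 30 genes were shared, and Cyp7b1 was among the 3 nearest to Egfr by both. These are the most extreme of many correlations over livers that share their groups, and they carry no test. Areg was at the edge of detection.

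Beside the members, 84 other genes of these pathways were tested. In vehicle livers 25 rose and 18 fell, where 15% of all genes were called higher and 14.8% lower. In hAAM livers 16 rose and 12 fell, where 10.7% were called higher and 9.96% lower, and none passed between the treatments by edgeR. The median log2 difference over all genes was 0.01 in vehicle and 0.02 in hAAM livers. Among 15 genes of HGF activation, Hgfac included, 6 rose and 4 fell in vehicle livers, with a median log2 difference of 0.35. In hAAM livers 4 rose and 1 fell, with a median of 0.16. Plat, the tissue plasminogen activator, rose from 0.808 CPM in control to 12.7 in vehicle (FDR = 0.0013) and 10.5 in hAAM livers (FDR = 0.0036). Plau, the urokinase that cleaves plasminogen and pro-HGF, rose from 1.23 CPM to 9.84 (FDR = 0.0016) and 10.5 (FDR = 0.0030). Klkb1, plasma kallikrein from hepatocytes, did not pass (FDR = 0.088 and 0.61). Of the sister system, Mst1, the hepatocyte-made ligand related to HGF, fell 1.42-fold in vehicle livers (FDR = 0.016) and did not pass in hAAM livers (FDR = 0.12), and its receptor Mst1r rose 2.39-fold in vehicle livers (FDR = 0.021) and did not pass in hAAM livers (FDR = 0.10). The Mst1 call was lost with library size alone (FDR = 0.21) or without control 2, and the Mst1r call without control 3.

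Among 3 neuregulins tested, Nrg4, a ligand of ERBB4, rose from 10.2 CPM in control to 24.6 in vehicle (FDR = 1.5e-04 by edgeR) and 20.6 in hAAM livers (FDR = 0.0012), and Nrg1, a ligand of ERBB3 and ERBB4, rose in vehicle livers (2.76-fold, FDR = 0.025) and did not pass with hAAMs (FDR = 0.099), while the treatments were not called different. The vehicle call of Nrg1 was lost without control 1 or control 3, and in hAAM livers Nrg1 passed without hAAM 3 (FDR = 0.0047), with DESeq2 and with library size alone. Of 7 shedding genes, 3 rose and 1 fell in vehicle livers (median 0.38) and 2 rose and 1 fell in hAAM livers (median 0.37), where 15% and 10.7% of all genes were called higher and 14.8% and 9.96% lower. Adam12, a metalloprotease that can release HB-EGF, rose from 1.41 CPM in control to 15.1 in vehicle (FDR = 0.0017) and 12.1 in hAAM livers (FDR = 0.0049). Timp3, the inhibitor of the main sheddase ADAM17, rose 1.54-fold (FDR = 0.0044) and 1.35-fold (FDR = 0.040), and its hAAM call was lost when any 1 of 6 libraries was left out and without the similar pair (FDR = 0.060). Adam17 itself did not pass (FDR = 0.56 and 0.61).

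Downstream of the receptors, 5 of 14 adaptors fell and 1 rose in vehicle livers, and 4 fell and 1 rose in hAAM livers, with a median of -0.13 in both. Of all genes, 14.8% were called lower in vehicle and 9.96% in hAAM livers. Stat3, which transmits cytokine and EGFR signals, fell from 297 CPM in control to 172 in vehicle (FDR = 2.4e-04 by edgeR) and 176 in hAAM livers (FDR = 7.9e-04). Crkl, an adaptor downstream of MET, fell 1.45-fold (FDR = 7.8e-04) and 1.35-fold (FDR = 0.0054), calls that were lost with library size alone (FDR = 0.095 and 0.29). Of 19 feedback inhibitors, 5 rose and 5 fell in vehicle livers (median -0.01), and 2 rose and 5 fell in hAAM livers (median -0.13), where 15% and 10.7% of all genes were called higher. Dusp4, an ERK phosphatase, rose from 1.79 CPM to 8.75 (FDR = 4.1e-04) and 6.75 (FDR = 0.0022). Ptpn1, a phosphatase that acts on EGFR and MET, fell 1.67-fold (FDR = 2.4e-04) and 1.78-fold (FDR = 2.9e-04). Cblb, a ubiquitin ligase, rose by 0.58 in vehicle livers (FDR = 0.043), a call lost when any 1 of 7 libraries was left out, and did not pass with hAAMs (FDR = 0.56).

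Of 12 genes that ERK signalling is known to induce, 5 rose and 1 fell in vehicle livers (median 0.43) and 4 rose in hAAM livers (median 0.86), where 15% and 10.7% of all genes were called higher. Emp1 rose 6.66-fold (FDR = 0.0011 by edgeR) and 6.60-fold (FDR = 0.0024). Etv4, an ETS factor, rose from 0.309 CPM to 2.46 (FDR = 0.0016) and 1.76 (FDR = 0.0072). Fosl1 was 0 to 0.114 CPM in control, 0.678 to 1.75 CPM in vehicle and 0.0775 to 0.738 CPM in hAAM livers, and was called higher in both (FDR = 0.0017 and 0.016), the latter not without control 2 or control 3. Of 10 genes of the FGFR4 axis, Fgfr4 included, 2 fell in vehicle livers and 1 in hAAM livers, near the 14.8% and 9.96% of all genes called lower, and none rose. Fgfr2, a related receptor, fell 1.73-fold (FDR = 6.2e-04) and 1.65-fold (FDR = 0.0024). Cyp8b1, a bile acid enzyme repressed by FGFR4 signalling, fell from 196 CPM to 67.3 in vehicle livers (FDR = 0.037) and was 122 CPM in hAAM livers (FDR = 0.39), and its vehicle call was lost without control 1, control 3 or vehicle 1, 2 or 5.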

How the data were processed

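Total RNA from frozen liver was depleted of ribosomal RNA and made into directional libraries. The submitters' processing notes name cutadapt 4.6, STAR 2.7.1a and GRCm38, and the methods name summarizeOverlaps for counting, with no strand setting. The table deposited by the authors holds an unscaled read count for each of 24187 genes. GENCODE M21 annotation of the same build matched 24128 of them.

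Genes with low counts were removed with filterByExpr by group in edgeR 4.0.16 (R 4.3.3), which left 22581. Counts were scaled by TMM, and 1 quasi-likelihood model was fitted to all 12 livers for 3 comparisons, with two-sided p-values and Benjamini-Hochberg FDR over all genes. DESeq2 1.42.0 was an alternative. SE was the log2 fold change over the root of F. CPM used scaled library sizes, and log2 CPM a prior count of 2. When vehicle against control was simulated with known changes, edgeR found 31.3% of those of 1.5-fold and 97.0% of those of 4-fold. The simulation left 22381 of 22581 genes unchanged and changed only well-counted genes, while far more genes were called in these data. These shares therefore do not give the power of the tests here.

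All 10 members were named. From each pathway list, the 2 genes with the smallest p for vehicle against control and the 1 with the smallest p between treatments were named, and for each member the 3 genes of highest correlation. The members and lists were chosen with earlier results of these data known. Alternatives were DESeq2, other scaling, other filters, robust estimation, pairwise fits, a replicate block and leaving out libraries. Basophil and mast cell markers were listed and are not analysed here.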

Additional observations from a re-analysis of the deposited data

How the results depend on the processing

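At 3 to 5 libraries per group, changes near 1.5-fold were often missed in simulation, where far fewer genes changed than were called here. Areg, at 0 to 26 counts a library, lay below the counts at which changes were simulated. It was called only for vehicle without the similar pair. Genes called between vehicle and control livers numbered 6719, and 4633 to 7197 when 1 library was left out, lowest without control 3. Between hAAM and control livers they numbered 4666, and 2419 to 5456, lowest without control 3. They were 7340 with library size alone, and 2729 when the vehicle livers were left out of the fit. Between the treatments 0 genes were called, 1 by DESeq2, and 0 to 1 when 1 library was left out, the 1 without vehicle 3. Members called numbered 4 to 6 for vehicle, 4 to 5 for hAAM and 0 to 0 between treatments in those fits. Library numbers did not pair the samples (correlations of deviations from -0.46 to 0.38). With the replicate block, 4253 genes were called for vehicle and 2959 for hAAM against control, and Hgfac was the only member whose call changed (vehicle, FDR = 0.10 by edgeR). Among the other named genes the block ended the vehicle calls of Mst1, Ereg, Nrg1, Erbb2, Cblb and Cyp8b1 and the hAAM calls of Ereg, Erbb4 and Timp3. Fitting only the groups compared ended the hAAM calls of Met, Ereg, Erbb4, Timp3 and Fosl1 and the vehicle call of Cblb. Calls were gained for Egf, Hgf, Fgfr4 and Erbb4 (vehicle) and Fgfr4, Mst1r, Adam17 and Nrg1 (hAAM) with library size alone, and for Erbb4 (vehicle) and Nrg1 (hAAM) with DESeq2. Leaving out 1 library gained Klkb1 (vehicle 3, also without the similar pair) and Erbb4 (control 1) for vehicle and Mst1 and Nrg1 (hAAM 3) for hAAM.

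Signs turned only for results that had not passed. Between the treatments Hgf was 0.00 with DESeq2 (9.2e-04), RLE factors (9.3e-04) and no filter (3.2e-04), 0.053 with the replicate block and 0.00 (0.0026) without the similar pair. Met (-0.025) and Fgfr4 (-0.017) turned with library size alone, and Erbb3 (0.030) with the block. In fits without 1 library, values between treatments ran from -1.39 to 0.12 for Areg, -0.48 to 0.046 for Btc, -0.27 to 0.12 for Erbb3, -0.017 to 0.082 for Fgfr4, -0.11 to 0.10 for Hgf, -0.030 to 0.071 for Met and -0.12 to 0.15 for Tgfa. Against control, Fgfr4 ran from -0.054 to 0.093 (vehicle) and -0.021 to 0.13 (hAAM), and Tgfa from -0.10 to 0.21 and -0.11 to 0.21. With library size alone Adam17 (vehicle) was 0.27 and Klkb1 (hAAM) 0.11. The cause was not tested.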

Other observations

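Among the member levels, 0 of 20 groups of 4 or 5 livers held a library that stood apart by Dixon's test, where chance would mark about 1. Of 8 proliferation markers, 3 rose in each APAP group by edgeR, where 15% of all genes were called higher in vehicle and 10.7% in hAAM livers. These were Pcna, Mcm2 and Mcm5, genes of DNA replication. The other 5 did not pass by edgeR, with Mki67 at FDR = 0.34 and 0.19 and Cdk1 at FDR = 0.060 and 0.061 in vehicle and hAAM livers. DESeq2 called Cdk1 in both groups (FDR = 0.015 and 0.013) and Top2a (FDR = 0.036) and Ccna2 (FDR = 0.044) in hAAM livers. The summed level of the 8 was 42.5 to 51.6 CPM in control, 60.7 to 150 CPM in vehicle and 58.1 to 184 CPM in hAAM livers, highest in hAAM 1 and lowest among APAP livers in hAAM 3.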
